A study of Mus musculus with 24 samples.

Results

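The mRNAs described here encode the machinery that shortens poly(A) tails: 6 subunits of the CCR4-NOT complex (Cnot1, Cnot2, Cnot6, Cnot6l, Cnot7 and Cnot8), the 2 PAN deadenylase subunits Pan2 and Pan3, and the BTG proteins Btg1 and Btg2. The members were taken by gene symbol, and all 10 were present among the 13534 genes of the whole-cell table and among the 11568 genes of the fraction table. All 10 passed the filter on low counts that left 12915 genes for testing.

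The cells were NIH3T3, an established mouse fibroblast line, reverse transfected with 10 nM of a miR-29b mimic or of a scrambled mimic. Both mimics carried 3-cyanovinylcarbazole (CNVK), a nucleoside that forms a covalent bond with a base of the opposite strand when illuminated. They were given more medium 24 h after transfection and were collected after another 8 h. RNA recovered with the mimic (pulldown) and the RNA it was drawn from (input) were sequenced, which gave 4 groups of 4 whole-cell libraries: miR-29b pulldown, scrambled pulldown, miR-29b input and scrambled input. A further 8 libraries came from nuclear and cytoplasmic fractions, 1 library for each of the same 4 kinds of sample in each fraction. All groups carried a CNVK mimic, and no untransfected sample was analysed here. The labels do not say whether replicates came from separate cultures. The spread behind every p-value is that between these libraries and may be technical.

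Deadenylation is the usual first step of mRNA decay in the cytoplasm. PAN2 is a nuclease that is held by its adaptor PAN3, and the CCR4-NOT complex holds 2 kinds of nuclease on the scaffold CNOT1, one kind encoded by Cnot6 or Cnot6l and the other by Cnot7 or Cnot8. An Argonaute protein loaded with a microRNA binds a TNRC6 protein, and TNRC6 proteins in turn bind both deadenylases. These mRNAs therefore encode effectors of microRNA silencing, and the comparisons below ask whether they were themselves recovered with a miR-29b mimic.

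The mature miR-29 sequences are shown because the seed decides which mRNAs are predicted to pair with the mimic. They are RefSeq entries on GRCm38.p6, written 5′ to 3′ with the seed (bases 2 to 8) in capitals. The mouse genome holds miR-29b at chr6:31063025-31063047 on the minus strand and at chr1:195037091-195037113 on the plus strand.
mmu-miR-29b-3p: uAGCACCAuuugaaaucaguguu
mmu-miR-29a-3p: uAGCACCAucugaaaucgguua
mmu-miR-29c-3p: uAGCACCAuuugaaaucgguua
All 3 share the seed, whose complement in a target reads TGGTGCT. The labels do not give the sequence of the transfected mimic itself.

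In the authors' deposited table, 3 of the 10 members, Pan2, Cnot6 and Btg2, carried the authors' mark for any predicted miR-29 site. That mark was given to 4.298% of the protein-coding genes in the table. Pan2 alone among the members also had the marks for an 8mer site and for a high context score. Those marks were given to 1.255% and 1.407% of the protein-coding genes. Cnot6l, Cnot7 and Pan3 had no predicted-site mark.

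Listed counts per library ran between 7409157 in scrambled pulldown replicate 1 and 55153996 in miR-29b input replicate 4. The fraction libraries held 5320421 to 20142591 listed counts. Of 10 fibroblast markers, 10 were in the table, and their summed level was 10517 to 19298 CPM (counts scaled to a common library total) in miR-29b pulldowns, 5017 to 5336 in scrambled pulldowns, 4855 to 6513 in miR-29b inputs and 4876 to 5127 in scrambled inputs. That list includes Col1a1 and Sparc, which are reported miR-29 targets. Of the marker lists of other cell types, the table held 1 of 5 epithelial, 1 of 5 leukocyte, 0 of 4 endothelial, 2 of 5 muscle and 2 of 5 neural genes. Epcam, Ptprc, Pecam1, Myod1 and Rbfox3 were not among the genes listed. The summed neural level was 19.1 to 21.6 CPM in miR-29b pulldowns, 9.18 to 12.0 in scrambled pulldowns, 12.5 to 18.9 in miR-29b inputs and 16.8 to 18.6 in scrambled inputs. The muscle level was 0.78 to 1.21 CPM in miR-29b pulldowns, 5.47 to 6.17 in scrambled pulldowns, 1.27 to 2.80 in miR-29b inputs and 1.63 to 2.03 in scrambled inputs. The epithelial level was 0 to 0.83 CPM in miR-29b pulldowns, 1.87 to 3.24 in scrambled pulldowns, and up to 1.01 in any input. The leukocyte level reached 4.02 CPM at most, in a miR-29b input. The neural, muscle and epithelial levels thus did not overlap between the 2 kinds of pulldown, and their part in the results below was not tested. Each group held 3 replicates of a procedure called lysed in the column headers (replicates 1 to 3) and a single replicate, number 4, of one called intact. The main model held no term for procedure, so the spread behind its p-values includes any difference between the 2 procedures.

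One library stood apart in a way that touched several members. Of 2191 genes at least 2-fold higher in miR-29b than in scrambled pulldowns, 71.6% were highest in replicate 4 among the 4 miR-29b inputs, against 42.2% for replicate 4 among the scrambled inputs. Pan2 in miR-29b input replicate 4 was 4.75-fold above the mean of the other 3 inputs, Pan3 2.44-fold, Cnot6l 1.81-fold and Cnot1 1.80-fold. Per the labels it was made from 6 ng of RNA, where every other library was made from 5 ng. What set this library apart was not tested, and results that rest on it are given with and without it.

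**Figure D1:**
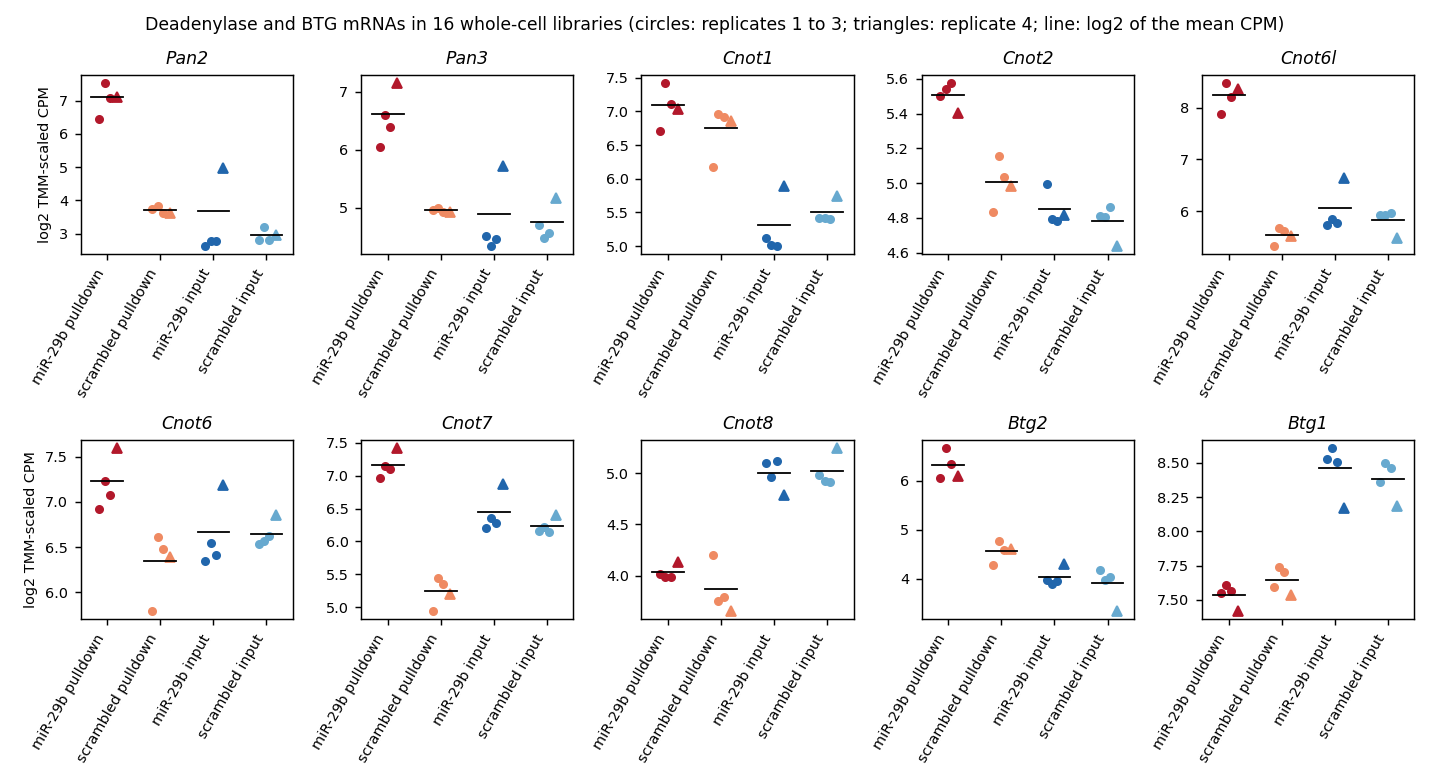
Each panel plots the log2 of the TMM-scaled CPM of 1 mRNA in the 16 whole-cell libraries, grouped as miR-29b pulldown, scrambled pulldown, miR-29b input and scrambled input. Circles are replicates 1 to 3, triangles replicate 4 and lines the log2 of the group's mean CPM. All 4 miR-29b pulldowns lie above all 4 scrambled pulldowns for Pan2, Pan3, Cnot2, Cnot6, Cnot6l, Cnot7 and Btg2, and the blue triangle of Pan2 lies far above the other 3 miR-29b inputs.

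The direct comparison of pulldowns asked which of these mRNAs came down with miR-29b rather than with the scrambled mimic. Pan2, Cnot6l, Cnot7, Btg2, Pan3, Cnot6 and Cnot2 were higher in the miR-29b pulldowns and no member was lower. That is 7 of 10 members, where 24.5% of all genes tested were higher and 20.9% were lower. For the same 7, all 4 miR-29b pulldowns lay above all 4 scrambled pulldowns, which held for 22.8% of genes. The members' median log2 change was 1.26, where the median of all genes was -0.10.

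Pan2, the catalytic subunit of the PAN complex (GRCm38 chromosome 10, 128303333 to 128321358), had 87.9, 187, 136 and 140 CPM in the 4 miR-29b pulldowns, against 13.5, 14.3, 12.4 and 12.4 CPM in the scrambled pulldowns. The inputs held 6.19, 6.86, 6.85 and 31.5 CPM with miR-29b and 7.07, 9.22, 6.92 and 7.83 CPM with the scrambled mimic. The miR-29b pulldowns overlapped no other group, the scrambled pulldowns lay above all scrambled inputs, and miR-29b input replicate 4 was the only input above any scrambled pulldown. The log2 change of Pan2 between miR-29b and scrambled pulldowns was 3.39 ± 0.46 (SE), with an edgeR adjusted p of 2.13e-05.

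Pan3, the pseudokinase that ties PAN2 to RNA-bound partners (chromosome 5, 147426208 to 147548501), had 66.2, 97.1, 84.4 and 142 CPM in miR-29b pulldowns, against 31.4, 32.0, 30.5 and 30.4 CPM in scrambled pulldowns. Its inputs held 23.0, 20.3, 22.0 and 53.0 CPM with miR-29b and 26.2, 22.4, 23.8 and 35.9 CPM with the scrambled mimic. Replicate 4 was the highest library of 3 of these groups, and the scrambled pulldowns spread by less than the inputs did. The log2 change between the pulldowns was 1.65 ± 0.30, with an edgeR adjusted p of 0.000305.

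Among the CCR4-NOT nucleases, Cnot6l (chromosome 5, 96070333 to 96164198) had 234, 357, 296 and 330 CPM in miR-29b pulldowns, against 40.4, 51.4, 49.0 and 46.0 CPM in scrambled pulldowns. Its inputs held 53.2, 57.7, 54.8 and 100.2 CPM with miR-29b and 61.0, 61.1, 62.3 and 44.7 CPM with the scrambled mimic. The miR-29b pulldowns stood above every other library, while the scrambled pulldowns lay among or below the inputs. Its log2 change between pulldowns was 2.70 ± 0.22, with an edgeR adjusted p of 1.56e-07.

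Its paralog Cnot6 (chromosome 11, 49671497 to 49713401), which encodes the other CCR4-type nuclease, had 121, 150, 135 and 193 CPM in miR-29b pulldowns, against 55.4, 97.6, 88.9 and 84.0 CPM in scrambled pulldowns. The inputs held 81.6, 93.6, 85.1 and 146 CPM with miR-29b and 92.8, 94.8, 98.3 and 115 CPM with the scrambled mimic. The pulldown groups did not overlap, but miR-29b input replicate 4 lay within the range of the miR-29b pulldowns. The log2 change between pulldowns was 0.88 ± 0.22, with an edgeR adjusted p of 0.0039.

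Cnot7 (chromosome 8, 40492538 to 40515847), one of the CAF1-type nucleases, had 125, 143, 137 and 171 CPM in miR-29b pulldowns, against 30.7, 43.5, 40.8 and 36.6 CPM in scrambled pulldowns. The inputs held 73.5, 81.8, 77.5 and 117 CPM with miR-29b and 71.7, 74.5, 70.9 and 84.3 CPM with the scrambled mimic. The inputs lay between the pulldown groups: every miR-29b pulldown was above and every scrambled pulldown below all 8 inputs. Its log2 change between pulldowns was 1.92 ± 0.17, with an edgeR adjusted p of 3.98e-07.

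Cnot8 (chromosome 11, 58092794 to 58118597), the other CAF1-type nuclease, had 16.2, 15.9, 15.9 and 17.5 CPM in miR-29b pulldowns, against 18.4, 13.5, 13.8 and 12.6 CPM in scrambled pulldowns. Its inputs held 34.2, 31.3, 34.8 and 27.6 CPM with miR-29b and 31.6, 30.3, 30.1 and 37.9 CPM with the scrambled mimic. Both pulldown groups lay below all inputs and overlapped each other. The log2 change between pulldowns was 0.17 ± 0.14, which did not pass the threshold (edgeR adjusted p of 0.33). It passed at 0.34 without scrambled pulldown replicate 1 (adjusted p of 0.0493) and at 0.53 with the authors' library totals (0.0174).

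Of the 2 structural subunits, Cnot1, the scaffold (chromosome 8, 95718931 to 95808113), had 105, 172, 138 and 131 CPM in miR-29b pulldowns, against 72.0, 124, 120 and 116 CPM in scrambled pulldowns. The inputs held 34.8, 32.3, 32.1 and 59.4 CPM with miR-29b and 42.5, 42.6, 42.5 and 53.5 CPM with the scrambled mimic. The pulldown groups overlapped each other and both lay above all inputs. The log2 change between pulldowns was 0.34 ± 0.23 (edgeR adjusted p of 0.244).

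Cnot2, which with CNOT3 forms a structural module of the complex (chromosome 10, 116485160 to 116581900), had 45.3, 46.6, 47.8 and 42.3 CPM in miR-29b pulldowns, against 28.5, 35.6, 32.8 and 31.6 CPM in scrambled pulldowns. Its inputs held 31.8, 27.7, 27.5 and 28.2 CPM with miR-29b and 28.1, 27.9, 29.1 and 24.9 CPM with the scrambled mimic. The groups of pulldowns did not overlap, and the step of 0.50 ± 0.11 on the log2 scale (edgeR adjusted p of 0.00174) was the smallest of the 7 that passed. It missed the threshold when the libraries were scaled by their upper quartile, with a log2 change of 0.20 and an edgeR adjusted p of 0.102.

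The BTG proteins bind CNOT7 and CNOT8 and raise their activity. Btg2 (chromosome 1, 134074865 to 134079155), an early-response gene, had 67.1, 102, 81.4 and 68.6 CPM in miR-29b pulldowns, against 19.4, 27.3, 24.0 and 24.5 CPM in scrambled pulldowns. Its inputs held 15.9, 14.9, 15.6 and 19.6 CPM with miR-29b and 18.1, 15.8, 16.6 and 10.1 CPM with the scrambled mimic. The groups stood in the order miR-29b pulldown, scrambled pulldown and inputs, and only the scrambled pulldown replicate of 19.4 CPM fell below an input, miR-29b input replicate 4. Its log2 change between pulldowns was 1.74 ± 0.19, with an edgeR adjusted p of 3.08e-06.

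Btg1 (chromosome 10, 96617001 to 96622813) had 187, 195, 189 and 171 CPM in miR-29b pulldowns, against 193, 214, 209 and 186 CPM in scrambled pulldowns. The inputs held 368, 390, 363 and 288 CPM with miR-29b and 328, 361, 353 and 291 CPM with the scrambled mimic. Both pulldown groups overlapped each other below all inputs, as for Cnot8. The log2 change between pulldowns was -0.11 ± 0.14 (edgeR adjusted p of 0.551). With upper-quartile scaling the change of Btg1 was -0.41 with an edgeR adjusted p of 0.0166, and with the authors' library totals it was 0.20.

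The comparison of inputs asked whether these mRNAs differed in amount in cells given the miR-29b mimic. No member passed the edgeR test between miR-29b and scrambled inputs, where, after adjustment, 0.0542% of all genes were higher and 0% lower. No member had an unadjusted p under 0.05 in edgeR or in DESeq2, and DESeq2 called 32 of 13478 genes higher and 12 lower. In bulk libraries a change in RNA per cell and a change in the cells sampled cannot be told apart. The largest log2 value was that of Pan2, 0.74 ± 0.43, and without miR-29b input replicate 4 it was -0.26 ± 0.21. The input difference of Pan3 was 0.13 with and -0.36 without that library, and that of Cnot6l was 0.22 with and -0.08 without it. Cnot1 stood at -0.19 ± 0.23 with all libraries and at -0.49 ± 0.20 without it (edgeR unadjusted p of 0.0285, adjusted p of 0.55).

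The next comparison set each pulldown against its own input, which takes differences in abundance into account. With miR-29b, 8 of 10 members were higher in the pulldown than in the input and 2, Cnot8 and Btg1, were lower, where 28.4% of all genes were higher and 23.2% lower. Pan2 had the highest log2 value, 3.41 ± 0.46, followed by Btg2 at 2.27 ± 0.20, Cnot6l at 2.19 ± 0.22, Cnot1 at 1.78 ± 0.23 and Pan3 at 1.72 ± 0.30. Cnot7 at 0.72 ± 0.17, Cnot2 at 0.66 ± 0.11 and Cnot6 at 0.56 ± 0.22 were lower on this scale, and Cnot8 and Btg1 fell by 0.97 ± 0.14 and 0.92 ± 0.14. Without miR-29b input replicate 4 the value of Pan2 was 4.42 ± 0.24. The call for Cnot6 (edgeR adjusted p of 0.042) was lost, at adjusted p-values of up to 0.139, when replicate 2, 3 or 4 of the miR-29b pulldowns, replicate 3 or 4 of the scrambled pulldowns, or replicate 1, 2 or 3 of either kind of input was left out. It was also lost with RLE factors (0.0502), with upper-quartile scaling (log2 change of 0.31, adjusted p of 0.24), when only its 2 groups were fitted (0.197) and in replicates 1, 2 and 4 (0.188). The call for Cnot7 was lost when only its 2 groups were fitted (adjusted p of 0.0559).

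With the scrambled mimic, 2 of 10 members were higher in the pulldown than in the input, Cnot1 by a log2 change of 1.26 ± 0.23 and Btg2 by 0.66 ± 0.19, where 18.5% of all genes were higher. Cnot7, Cnot8 and Btg1 fell by 0.99 ± 0.17, 1.16 ± 0.14 and 0.73 ± 0.14, where 17.4% of genes were lower. Cnot1 and Btg2 were thus above input and Cnot8 and Btg1 below it with both mimics, whereas Cnot7 was above its input with miR-29b and below it with the scrambled mimic. The call for Btg2 was lost with the authors' library totals (edgeR adjusted p of 0.0757) and in replicates 1, 2 and 4 (0.086). Pan2 stood at 0.76 ± 0.43 with an edgeR adjusted p of 0.182. Its 4 scrambled pulldowns lay above its 4 scrambled inputs, and without miR-29b input replicate 4, which widens the shared estimate of spread, the adjusted p for Pan2 was 0.00687.

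**Figure D2:**
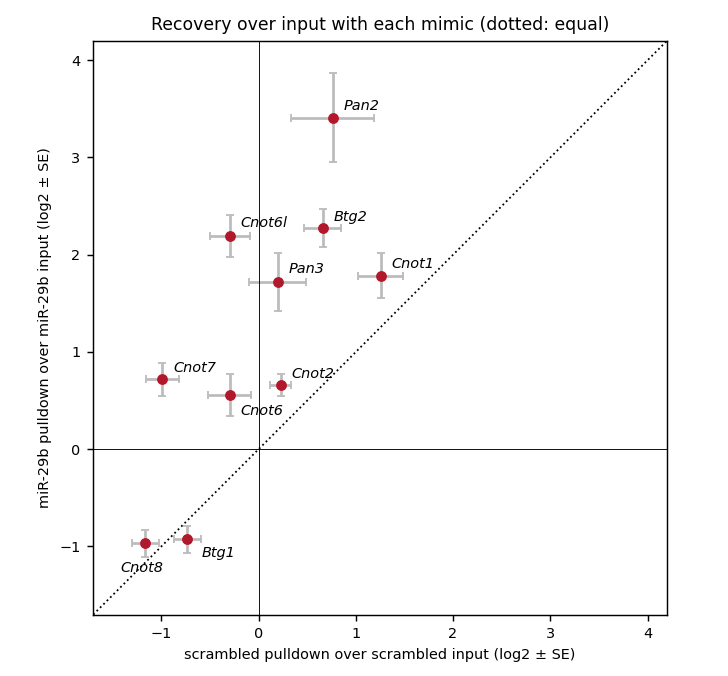
Each point is 1 of the 10 mRNAs. The vertical axis is the log2 change of the miR-29b pulldown over the miR-29b input, the horizontal axis that of the scrambled pulldown over the scrambled input, both with SE, and the dotted line marks equal values. Pan2, Cnot6l, Cnot7, Btg2 and Pan3 lie well above the line, and Cnot8 and Btg1 lie near it with negative values on both axes.

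The mimic-specific comparison, which is the pulldown-over-input change with miR-29b minus that with the scrambled mimic, tested the difference between the mimics in 1 model. Both PAN subunits, 1 nuclease of each CCR4-NOT kind and 1 BTG gene were higher: Pan2, Pan3, Cnot6l, Cnot7 and Btg2. That is 5 of 10 members higher and 0 lower, where 17% of all genes were higher and 9.21% lower. The median log2 change of the members was 1.19, and that of all genes was -0.10.

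The log2 change of Pan2 was 2.65 ± 0.61 with an edgeR adjusted p of 0.0043, and without miR-29b input replicate 4 it was 3.69 ± 0.29 with an adjusted p of 1.66e-07. Pan3 changed by 1.52 ± 0.41 (edgeR adjusted p of 0.0127), or by 2.05 ± 0.32 without that library. Both PAN subunits missed the threshold in a fit of replicates 1, 2 and 4, at adjusted p-values of 0.0634 for Pan2 and 0.105 for Pan3. Cnot6l, Cnot7 and Btg2 passed in that fit too.

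Cnot6l changed by 2.49 ± 0.30 with an edgeR adjusted p of 2.58e-05, and Cnot7 by 1.71 ± 0.24 with an adjusted p of 9.93e-05. Btg2 changed by 1.62 ± 0.27 with an edgeR adjusted p of 0.000396. Without miR-29b input replicate 4 these log2 changes were 2.82 for Cnot6l, 1.95 for Cnot7 and 1.77 for Btg2.

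Cnot6 and Cnot2 lay just outside the threshold, at 0.86 ± 0.31 with an edgeR adjusted p of 0.0512 and at 0.43 ± 0.16 with an adjusted p of 0.0548. Cnot1 stood at 0.53 ± 0.32 (0.254), Cnot8 at 0.20 ± 0.20 (0.504) and Btg1 at -0.19 ± 0.20 (0.521), with the edgeR adjusted p in parentheses. Without miR-29b input replicate 4, Cnot1, Cnot2 and Cnot6 passed as well, with adjusted p-values of 0.0252, 0.0244 and 0.00418, so that 8 of 10 members were higher, in a fit where 21% of all genes were higher and 10.7% lower. Cnot2 also passed, at adjusted p-values of 0.0239 to 0.0467, when replicate 4 of the miR-29b pulldowns, replicate 1 or 2 of the scrambled pulldowns, replicate 1 of the miR-29b inputs, or replicate 1 or 4 of the scrambled inputs was left out. Cnot6 also passed when replicate 1 of the miR-29b pulldowns or replicate 2 of the scrambled pulldowns was left out, at 0.039 and 0.0452, and DESeq2 called both Cnot2 (0.00632) and Cnot6 (0.0412). With edgeR, Cnot2 passed with RLE factors (0.0461) and with the filter of 2 CPM in 4 libraries (0.0307), and Cnot6 with the authors' library totals (0.0452). Neither passed with upper-quartile scaling, at 0.488 for Cnot2 and 0.157 for Cnot6.

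Scaling by upper quartiles moved the median of all genes to -0.39 and turned 2192 higher and 1190 lower genes into 1662 and 2400, whereas the authors' library totals moved the median to 0.21 with 2464 higher and 285 lower genes. Under both, Pan2, Pan3, Cnot6l, Cnot7 and Btg2 were higher, and the small values of Cnot8 and Btg1 changed sign under one of the scalings.

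**Figure D3:**
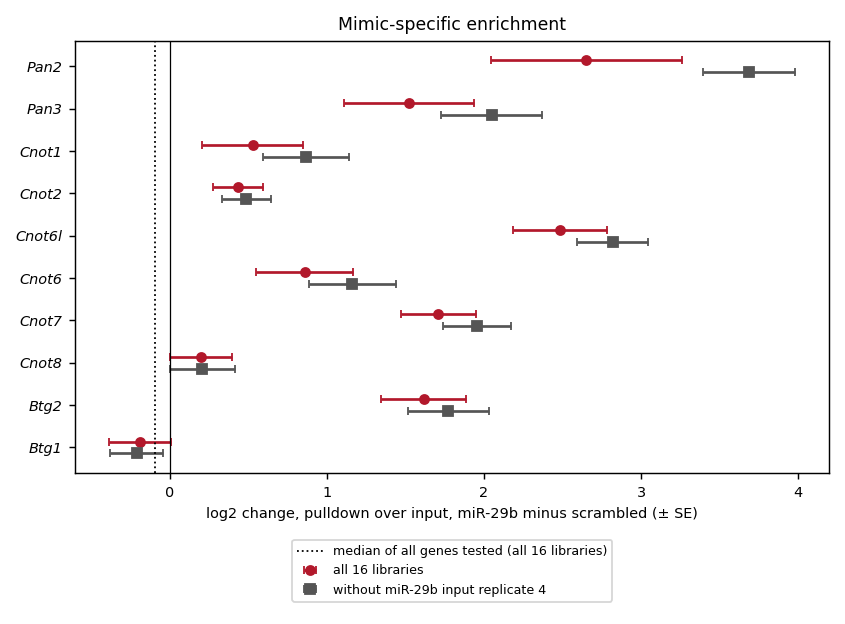
The mimic-specific log2 change (pulldown over input, miR-29b minus scrambled) of the 10 mRNAs is plotted with its SE, as fitted on all 16 libraries (red circles) and without miR-29b input replicate 4 (grey squares). The dotted line marks the median of all genes tested. Leaving out that library moves Pan2 the most, between 2.65 and 3.69.

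Because replicate 4 was made by the procedure called intact, the mimic-specific difference of log2 CPM was also taken within each procedure. Pan2 stood at 3.49 in replicates 1 to 3 and at 1.49 in replicate 4, Cnot6l at 2.79 and 1.68, and Btg2 at 1.94 and 0.53. Cnot7 stood at 1.73 and 1.75 and Pan3 at 1.53 and 1.67, so their values were near each other in the 2 procedures. Cnot1 stood at 0.77 and 0.03 and Cnot8 at -0.04 and 0.93. Cnot2 stood at 0.50 and 0.24, Cnot6 at 0.92 and 0.86 and Btg1 at -0.21 and -0.10. Between the pulldowns alone, Pan2 stood at 3.28 in replicates 1 to 3 and at 3.49 in replicate 4, and Cnot6l at 2.64 and 2.84. The wider gaps in the mimic-specific values of Pan2 and Cnot6l came with their inputs, where the miR-29b minus scrambled difference was -0.21 and -0.15 in replicates 1 to 3 and 2.00 and 1.16 in replicate 4.

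The members hold 3 pairs of paralogs, and in each pair 1 gene passed the mimic-specific test and the other did not. The ratio of a pair's counts within 1 library is free of library scaling. These pairs were chosen with the values above known, so the ratios are a description without a test. The log2 ratio of Cnot6l over Cnot6 was 0.77 to 1.25 in miR-29b pulldowns and -0.93 to -0.46 in scrambled pulldowns, and it was -0.70 to -0.54 in miR-29b inputs and -1.37 to -0.61 in scrambled inputs. The miR-29b pulldowns alone held more Cnot6l than Cnot6 counts, and the ratio differed 3.49-fold between the pulldowns.

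The log2 ratio of Cnot7 over Cnot8 was 2.95 to 3.29 in miR-29b pulldowns and 0.74 to 1.69 in scrambled pulldowns, with 1.10 to 2.09 in miR-29b inputs and 1.15 to 1.30 in scrambled inputs. The pulldowns differed 3.36-fold, and scrambled pulldowns overlapped the inputs. Btg2 over Btg1 gave -1.48 to -0.94 in miR-29b pulldowns and -3.32 to -2.92 in scrambled pulldowns, with -4.72 to -3.87 in miR-29b inputs and -4.84 to -4.18 in scrambled inputs. This ratio differed 3.59-fold between the pulldowns, and the scrambled pulldowns too lay above both inputs, by 2.65-fold over the scrambled inputs.

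The authors' own enrichment score per replicate was highest for Pan2 and Cnot6l among the members. In the authors' deposited table Pan2 had scores of 10.0, 14.6, 11.9 and 12.2 for replicates 1 to 4, and Cnot6l had 7.43, 6.97, 5.66 and 7.28. Btg2 scored 4.38, 3.80, 3.18 and 2.85, Cnot7 3.08, 2.16, 2.05 and 3.31, and Pan3 2.29, 2.91, 2.40 and 4.40 in the same authors' table. The other 5 members lay between -1.33, for Cnot8, and 1.59, for Cnot1. The authors' deposited table marked Pan2 and Cnot6l as positive hits, a mark that 4.594% of its protein-coding genes had. Pan2 had a predicted site and Cnot6l had none. Because the authors' score rests on the same libraries, it is no independent measurement, and no source used here gives its formula.

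The fractions asked where in the cell these mRNAs lay and where they were recovered. With 1 library per fraction and kind there was no test, and intervals cover counting error only. The nuclear RNAs Malat1 and Neat1 were 191-fold and 103-fold higher in the nuclear than in the cytoplasmic miR-29b input, and 128-fold and 82.8-fold higher in the nuclear than in the cytoplasmic scrambled input. In the pulldowns the separation was smaller: Malat1 was 7.44-fold higher in the nuclear than in the cytoplasmic miR-29b pulldown and 4.18-fold higher in the nuclear than in the cytoplasmic scrambled pulldown. Malat1 was 22.1-fold higher in the cytoplasmic miR-29b pulldown than in the cytoplasmic miR-29b input, and 36.3-fold higher in the cytoplasmic scrambled pulldown than in its input. The part of nuclear RNA in the cytoplasmic pulldown values below was not tested.

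Pan2 mRNA had 66.5 CPM (95% exact Poisson interval 62.3 to 70.8) in the nuclear miR-29b input, against 7.73 CPM (6.41 to 9.25) in the cytoplasmic miR-29b input. In the scrambled inputs Pan2 had 74.8 CPM (70.5 to 79.4) in the nuclear and 8.71 CPM (7.40 to 10.2) in the cytoplasmic fraction. With a prior count of 5 added, the nuclear level of Pan2 was 8.18-fold the cytoplasmic one with miR-29b and 8.22-fold with the scrambled mimic. These levels are relative to all counts of a fraction and do not give amounts per cell.

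The log2 nuclear over cytoplasmic ratio of Pan3 was 2.13 in the miR-29b inputs and 1.93 in the scrambled inputs. Cnot1 stood at 1.55 and 1.37, and Cnot2 at 1.03 and 1.01, in the miR-29b and the scrambled inputs. These 3 genes and Pan2 were the 4 of 10 members over 2-fold higher in the nuclear fraction with each mimic, where 25.1% of all genes were with miR-29b and 23.8% with the scrambled mimic. Btg1 lay on the other side, at -1.13 and -1.15, where 25.9% and 24% of genes were over 2-fold lower. The 5 others, the 4 nucleases of CCR4-NOT and Btg2, lay between -0.58 and 0.23. All these ratios were higher without TMM scaling, and Cnot6, Cnot8 and Cnot6l, which had negative values in the miR-29b inputs, then stood at 0.30, 0.39 and 0.28. Without that scaling, 41.9% of all genes were over 2-fold higher in the nuclear fraction with miR-29b and 37.8% with the scrambled mimic, while the members were still 4 of 10. Btg1 then stood at -0.42 and -0.57 and was no longer past 2-fold.

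**Figure D4:**
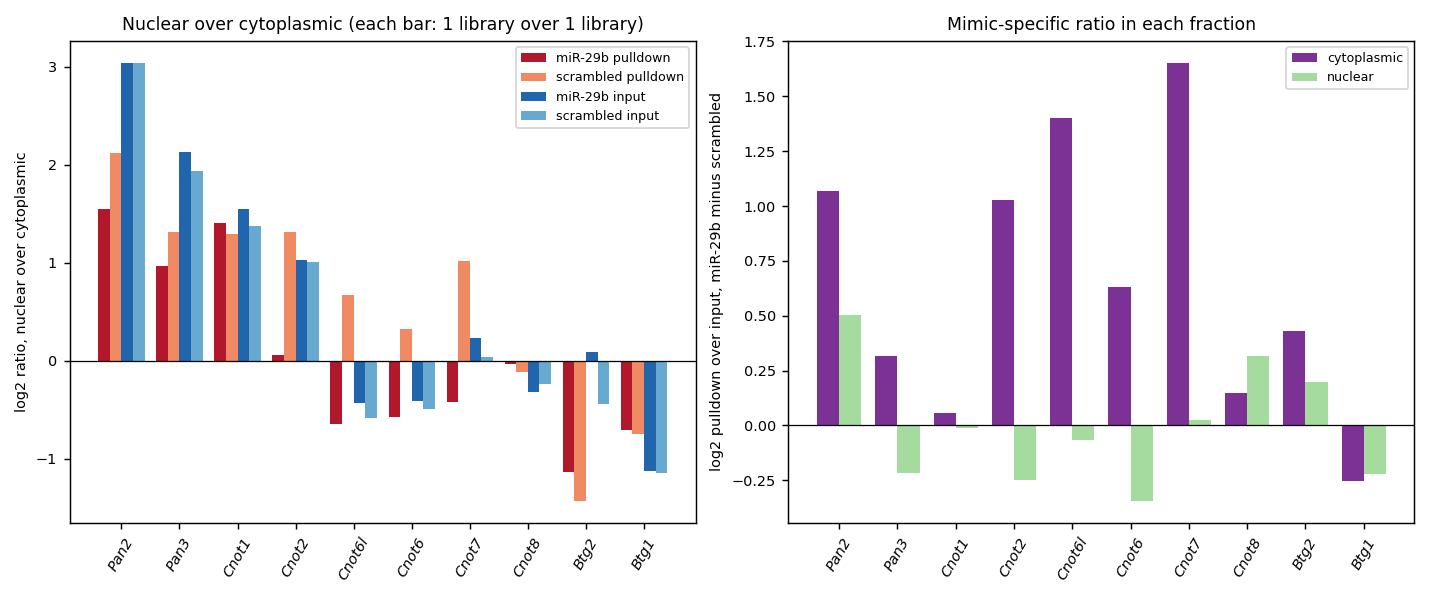
The left panel plots the log2 ratio of the nuclear over the cytoplasmic library for the 10 mRNAs in each kind of sample, and the right panel the mimic-specific log2 ratio (pulldown over input, miR-29b minus scrambled) in the cytoplasmic and the nuclear fraction. Each bar of the left panel compares 2 libraries and each bar of the right panel 4, without replicates. Pan2 and Pan3 have the highest nuclear ratios in the inputs, and Cnot7, Cnot6l, Pan2 and Cnot2 pass 1 in the cytoplasmic fraction.

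In the cytoplasmic fraction the mimic-specific log2 ratio was 1.65 for Cnot7, 1.40 for Cnot6l, 1.07 for Pan2 and 1.03 for Cnot2. These 4 of 10 members were over 2-fold higher and none was over 2-fold lower, where 19.3% of all genes were over 2-fold higher and 16.5% lower. Without TMM scaling 2 of 10 members, Cnot7 and Cnot6l, were over 2-fold higher, with Pan2 at 0.93 and Cnot2 at 0.90, where 16% of all genes were higher and 18.8% lower. Cnot6 stood at 0.63, Btg2 at 0.43, Pan3 at 0.32, Cnot8 at 0.15, Cnot1 at 0.06 and Btg1 at -0.25. The authors' own cytoplasmic enrichment score was 1.69 for Pan2, 0.33 for Cnot2, 0.16 for Cnot7 and 0.01 for Cnot6l. The authors' cytoplasmic significance mark was given to 0 of 10 members and to 1.731% of protein-coding genes. In the nuclear fraction no member passed 2-fold, with values from -0.34 for Cnot6 to 0.50 for Pan2, where 1.83% of genes were over 2-fold higher and 2.31% lower.

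Cnot7 had 145 CPM (137 to 154) in the cytoplasmic miR-29b pulldown, against 40.7 CPM (34.6 to 47.6) in the cytoplasmic scrambled pulldown. Cnot6l had 134 CPM (126 to 142) in the cytoplasmic miR-29b pulldown, against 49.5 CPM (42.8 to 57.0) in the scrambled one. Pan2 had 31.3 CPM (27.6 to 35.3) in the cytoplasmic miR-29b pulldown, against 16.5 CPM (12.7 to 21.1) in the scrambled one, which rested on 64 counts. None of these intervals overlapped between the mimics, nor did those of Cnot2, Cnot6 and Pan3, while those of Cnot1, Cnot8, Btg1 and Btg2 did. The intervals cover counting error only. The share of all genes without overlap was not counted, so this cannot be read as a trait of the members. In the nuclear fraction Pan2 had 92.1 CPM with miR-29b and 73.0 CPM with the scrambled mimic among the pulldowns.

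Other genes of mRNA decay were taken as lists, to be read against the 17% of all genes that were higher and the 9.21% that were lower in the mimic-specific comparison. In the fit of replicates 1, 2 and 4 those shares were 7.78% and 1.81%, and in the fit of replicates 1 to 3 they were 24.4% and 19.1%. With upper-quartile scaling they were 12.9% and 18.6%, with the authors' library totals 19.1% and 2.21%, and with RLE factors 16.8% and 9.31%. In the 16 fits that each left out 1 library, 14.8 to 21% of all genes were higher and 5.99 to 11.1% lower. Of 5 other CCR4-NOT subunits tested, 2 were higher and 2 lower in the mimic-specific comparison, with a median log2 change of 0.27. Rqcd1, which encodes the subunit now called CNOT9, changed by 1.25 ± 0.31 (edgeR adjusted p of 0.00726) and Cnot11 by 1.01 ± 0.21 (0.00207). Cnot10 changed by -0.76 ± 0.25 (0.0367), and Cnot3 was also lower. Without miR-29b input replicate 4, Rqcd1 and Cnot11 were still the 2 higher subunits and none was lower, at an edgeR adjusted p of 0.0526 for Cnot10. With the authors' library totals Cnot10 stood at -0.41 (adjusted p of 0.384) and no subunit was lower. Of 16 fits that each left out 1 library, 10 had no lower subunit. In replicates 1, 2 and 4 none of the 5 was higher or lower, at edgeR adjusted p-values of 0.0922 for Rqcd1 and 0.0609 for Cnot11. In replicates 1 to 3, 2 were higher and 2 lower, with Cnot10 at an edgeR adjusted p of 0.00742.

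Among 8 other deadenylases and BTG or TOB genes tested, Toe1 and Pde12 were higher, by 1.78 ± 0.23 (edgeR adjusted p of 4.94e-05) and 1.10 ± 0.22 (0.00147), and none was lower. TOE1 is a nuclear deadenylase and PDE12 a mitochondrial one. Parn, the poly(A)-specific ribonuclease, stood at -0.74 ± 0.32 (0.0997), and without miR-29b input replicate 4 at -0.84 (0.027), which made it the only lower gene of the list. In replicates 1 to 3, 3 genes of the list were higher and 1 lower, with Parn at an edgeR adjusted p of 0.0126. The median of the list was 0.21 with all libraries.

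Of 13 genes for proteins that bring deadenylases to mRNAs, 4 were higher and none lower, with a median of 0.39: Zfp36, Zfp36l1, Samd4 and Tnrc6c. Zfp36 and Zfp36l1, which bind AU-rich elements, changed by 3.57 ± 0.58 (edgeR adjusted p of 0.000328) and 3.14 ± 0.44 (0.000107). Samd4, a mouse Smaug gene, changed by 2.66 ± 0.62 (0.00475). Without miR-29b input replicate 4, 5 were higher, and the log2 change of Zfp36 was 4.48 and that of Samd4 3.68. Without scrambled input replicate 1 or miR-29b pulldown replicate 1 it was 4, and it was 3 in every other fit that left out 1 library. Zfp36, Zfp36l1 and Samd4 passed in all 16 of these fits, so Tnrc6c was the call lost where 3 were higher. With RLE factors and with upper-quartile scaling 3 were higher as well. In replicates 1, 2 and 4, 2 of the 13 were higher, and Samd4 missed the threshold (edgeR adjusted p of 0.0612). In replicates 1 to 3, 5 were higher and none lower, with Samd4 at an edgeR adjusted p of 4.91e-06.

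Of 12 decapping and 5′ decay genes, 4 were higher and none lower, with a median log2 change near 0: Edc3, Lsm14a, Lsm1 and Dcp1a. Edc3, an enhancer of decapping, changed by 3.05 ± 0.42 (edgeR adjusted p of 9.22e-05), Lsm14a by 1.58 ± 0.23 (0.00011) and Lsm1 by 0.73 ± 0.21 (0.0171). Lsm1 missed the threshold with upper-quartile scaling, at 0.45 (0.138). Without miR-29b input replicate 4, 5 genes of this list were higher. Leaving out replicate 1 of the miR-29b pulldowns kept 4, as did leaving out replicate 2 of the scrambled pulldowns. Every other fit that left out 1 library had 3 higher. Edc3, Lsm14a and Lsm1 passed in all 16 of these fits, so Dcp1a was the call lost where 3 were higher. Of the 16 fits, 15 had no lower gene of this list. With RLE factors and with the filter of 2 CPM in 4 libraries 3 were higher as well. In replicates 1, 2 and 4, 2 were higher, with Lsm1 at an edgeR adjusted p of 0.137. With upper-quartile scaling 2 were higher and 2 lower. In replicates 1 to 3, 4 were higher and none lower, with Lsm1 at an edgeR adjusted p of 0.00105.

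Of 6 genes for poly(A)-binding proteins and their partners, none was higher and Pabpn1 was lower, by -1.45 ± 0.50 (edgeR adjusted p of 0.0445), with a median of -0.66. That call was lost with the authors' library totals (edgeR adjusted p of 0.11) and in replicates 1, 2 and 4 (0.206). It was also lost without miR-29b input replicate 4 (0.117), where 1 of the 6 was higher and another lower. Of 16 fits that each left out 1 library, 13 had no lower gene of this list. In replicates 1 to 3, 1 of the 6 was higher and 3 were lower, with Pabpn1 at an edgeR adjusted p of 0.0158. With all libraries Paip1 stood at -0.79 (0.0679) and Paip2 at 0.37 (0.076). Pabpn1 had 1.11 ± 0.35 CPM in miR-29b pulldowns, 2.26 ± 0.44 CPM in scrambled pulldowns, 0.85 ± 0.29 CPM in miR-29b inputs and 0.64 ± 0.30 CPM in scrambled inputs (SD, n = 4 each), which is a low level.

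Of 15 exosome and Ski complex genes, 3 were higher and 2 lower, with a median of -0.23. Exosc3 changed by 1.84 ± 0.29 (edgeR adjusted p of 0.000261), Exosc5 by 1.57 ± 0.31 (0.00156) and Wdr61 by 0.98 ± 0.28 (0.0172), while Exosc1 and Skiv2l were lower. Wdr61 missed the threshold with upper-quartile scaling, at 0.66 (0.111), and in replicates 1, 2 and 4 (0.163). In replicates 1 to 3, 5 genes of the list were higher and 4 lower, and with upper-quartile scaling 2 were higher and 3 lower. No gene of the list was lower with the authors' library totals, in replicates 1, 2 and 4, or in 9 of the 16 fits that each left out 1 library. Those 9 left out replicate 1, 2 or 3 of the miR-29b inputs, 1 or 2 of the scrambled inputs, 2 of the miR-29b pulldowns, or 2, 3 or 4 of the scrambled pulldowns. For reference, the reported miR-29 targets Mcl1, Col1a1 and Sparc changed by 4.19 ± 0.56, 2.74 ± 0.70 and 2.35 ± 0.21 in the same comparison, all 3 passing the test. In replicates 1, 2 and 4 Col1a1 missed it (edgeR adjusted p of 0.0922), and in replicates 1 to 3 it passed (9.86e-06).

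Over the 16 whole-cell libraries, the tested gene whose log2 CPM was most like that of Pan2 was Fbxw7 (Pearson r of 0.997). For Cnot6l it was Cpsf7 (0.996), for Btg2 Ppp1r12b (0.993), for Pan3 Dclre1b (0.992) and for Cnot1 Phc3 (0.991). For Cnot8 it was Ube2d2a (0.986), for Btg1 Xbp1 (0.984), for Cnot7 Rabif (0.974), for Cnot2 another member, Btg2 (0.973), and for Cnot6 Rqcd1 (0.972). The libraries fall into 4 groups that all these correlations share, so they describe a like pattern over the groups and carry no test.

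Counting was by gene, and no source used here gives a strand setting. Among the members with large changes, Cnot7 overlaps Vps37a and Cnot6l overlaps Gm52799 in the RefSeq annotation of GRCm38. Reads in those stretches therefore cannot be assigned with certainty. Cnot1 overlaps Setd6 and 4 noncoding genes, and Cnot6, Cnot8 and Cnot2 also overlap other genes. Pan2, Pan3, Btg1 and Btg2 overlap no gene of the RefSeq annotation. Overlaps among the gencode genes that the authors counted were not checked.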

How the data were processed

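Raw counts per gene were taken from the authors' deposited tables, whose first line names gencode genes. STAR 2.3.0 and mm10 are named in the submitters' processing notes, and no source used here names the counting tool. The deposited CPM columns, which hold count plus 1 scaled to a larger library total, served only to recover those totals. The authors' deposited enrichment score has no stated formula. Listed counts were 48.9 to 87.3% of the authors' totals in whole-cell libraries and 37.4 to 78.9% in fractions. Repeated lines (518 and 11) were dropped.

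Counts of 16 libraries were fitted together with edgeR 4.0.16 in R 4.3.3 (filterByExpr, TMM, 1 coefficient per group, quasi-likelihood F test). SE is the log2 change divided by the root of F. P-values were adjusted by Benjamini-Hochberg over 12915 genes, and the threshold was 0.05. CPM in the text were recomputed from listed counts with TMM scaling, except for the summed marker levels. Those were scaled to the total of listed counts without TMM factors. Fraction ratios used a prior count of 5. In simulated data of this size the test recovered 66.5% of 4-fold changes in the mimic-specific comparison and 80.7% between pulldowns, among 12823 genes. The changes were put into 197 genes of the miR-29b pulldowns, and false calls numbered 9 and 10. The simulation changed far fewer genes than were called in the data and held no difference between procedures. Its shares therefore need not hold for the data.

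Same-numbered libraries deviated together in the inputs (correlations of 0.506 to 0.717) and between miR-29b pulldowns and inputs (0.379 to 0.7), but not in all pairs with scrambled pulldowns (down to -0.0962). Alternatives were other scalings, DESeq2 1.42.0, other filters, a replicate block and libraries left out. The members, the gene lists and the alternative of replicates 1, 2 and 4 were chosen with earlier results of these data known. Named genes are the members, up to 3 genes per list with the smallest mimic-specific p, and each member's best correlated gene. Malat1 and Neat1, the paralog ratios and the values within each procedure were added after values were seen.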

Additional observations from a re-analysis of the deposited data

Results flagged for a closer look

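Of 40 sets of 4 libraries (10 members in 4 groups), 7 held a library whose gap to its nearest neighbour, as a share of the set's log2 range, was above Dixon's 95% critical value. Chance gives about 1 in 20 for independent sets of like libraries. These 40 sets share the same libraries, and replicate 4 was made by the procedure called intact, so that figure is no yardstick here. The share over all genes was not counted. In the miR-29b inputs replicate 4 was highest, with a share of 0.937 for Pan2, 0.873 for Pan3, 0.871 for Cnot6l and 0.868 for Cnot1. In the scrambled inputs replicate 4 was highest for Cnot1 (0.986) and lowest for Cnot6l (0.934). In the scrambled pulldowns replicate 1, the library with the fewest counts, was lowest for Cnot1 (0.882).

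The mimic-specific log2 ratio was positive in the cytoplasmic and negative in the nuclear fraction for 5 members, with 1 library of each kind, so the difference was not tested. Cytoplasmic minus nuclear, it was 1.47 for Cnot6l, 1.28 for Cnot2, 0.975 for Cnot6, 0.532 for Pan3 and 0.0657 for Cnot1. The median of all genes was 0.035 in the cytoplasmic and -0.004 in the nuclear fraction. The share of all genes with such a split was not counted, so the 5 cannot be read as a trait of the members. Which 5 depends on the scaling: without TMM factors Cnot1 stood at -0.074 in the cytoplasmic and -0.057 in the nuclear fraction, and Cnot7 at 1.52 and -0.021.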

How the results depend on the processing

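The 5 members higher in the mimic-specific comparison numbered 5 to 8 when 1 library was left out, where 14.8 to 21% of all genes were higher. They numbered 8 in replicates 1 to 3 (24.4% of all genes) and 3 in replicates 1, 2 and 4 (7.78%). Between pulldowns 1 member was lower with upper-quartile scaling, where 33.6% of all genes were lower. With a 2-fold minimum, miR-29b enrichment kept 5 higher and 0 lower, where 2565 and 1500 of 12915 genes were. Scrambled enrichment then kept 1 higher and 1 lower, where 1400 and 741 genes were. Scrambled enrichment had 1 higher with the authors' totals (15% of all genes), 4 in replicates 1 to 3 (27.7%) and 1 in replicates 1, 2 and 4 (8.49%). Small values changed sign: Cnot8 mimic-specific -0.10 with upper quartiles and -0.018 in replicates 1 to 3, and -0.13 between pulldowns with upper quartiles, and Btg1 0.12 mimic-specific and 0.20 between pulldowns with the authors' totals. In the inputs, replicates 1 to 3 gave -0.15 for Cnot6, -0.17 for Cnot6l, 0.11 for Cnot8, -0.23 for Pan2, -0.16 for Pan3 and -0.14 for Btg2. Leaving out 1 library gave input values of -0.25 to 0.11 for Cnot6, -0.081 to 0.32 for Cnot6l, -0.085 to 0.068 for Cnot8, -0.26 to 0.98 for Pan2, -0.36 to 0.32 for Pan3 and -0.012 to 0.20 for Btg2. The cause of these shifts was not tested.

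The replicate block gave 0.88 for Cnot6 in the mimic-specific comparison (edgeR adjusted p of 0.00815) and -0.014 in the inputs. It changed no other call of a member.

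Over all genes, the 1190 lower in the mimic-specific comparison were 2400 with upper quartiles, 285 with the authors' totals, 1931 with the replicate block, 2457 in replicates 1 to 3 and 233 in replicates 1, 2 and 4, where the 2192 higher were 1004. Lower genes between pulldowns numbered 2703, against 4333, 1094 and 1463 with upper quartiles, the authors' totals and replicates 1, 2 and 4. Pan2 in the cytoplasmic scrambled pulldown rested on 64 counts, which limits its ratio.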
